A study of Chlorocebus aethiops with 36 samples.

Results

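The genes described here encode the phase I and phase II enzymes of drug metabolism. They were chosen by symbol: cytochrome P450 genes of the CYP1A, CYP1B, CYP2 and CYP3A groups, alcohol dehydrogenases (ADH), flavin monooxygenases (FMO), UDP-glucuronosyltransferases (UGT1A, UGT2), sulfotransferases (SULT), cytosolic glutathione transferases (GST) and microsomal glutathione transferases (MGST). CYP26 and CYP27 genes, pseudogenes and antisense symbols were left out. The rule found 67 genes among 19775 with a probe set annotated to them alone, and 60 of them passed the filter on low values, as did 13634 genes in all. The 7 below it were ADH7, CYP24A1, CYP2S1, GSTT2, UGT1A1, UGT2A3 and UGT2B4. The probe sets were made for human genes, and their match to the monkey transcripts was not tested. A low value therefore does not show that a gene was not expressed. CYP20A1 and CYP24A1 entered through the letters of the rule, although they belong to other P450 families, and the transcript CYP3A7-CYP3A51P is a read-through symbol. A further 17 probe sets of these families were annotated to several genes and were not used.

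Liver of 12 male African green monkeys was measured on a human Affymetrix array, the HG-U133 Plus 2.0, in 36 arrays that form 6 groups of 6. One arm of 6 animals was given anti-miR-33, an oligonucleotide that binds and blocks the microRNA miR-33, and the other 6 were given a control anti-miR. Both were given under the skin at 5 mg/kg, more often at first and then weekly. Each animal was sampled untreated on chow at week -5 (baseline), under treatment on chow at week 4, and under treatment at week 12 after 8 weeks of a diet high in carbohydrate and moderate in cholesterol. Age and strain are not given in the labels used here, and a baseline array took its arm from the animal's later labels. Every animal received an oligonucleotide, so treatment, diet and time could not be separated in a change over time. Identifiers of the week 4 arrays come from another run of numbers than those of the other times. What these numbers mark is not stated, so week 4 and that run cannot be told apart. The week 4 array of control animal 1 carries the label of the high carbohydrate diet, unlike its group.

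Phase I enzymes oxidise drugs, alcohols, steroids and fatty compounds, mostly in hepatocytes, with P450 enzymes and FMOs in the endoplasmic reticulum and ADHs in the cytosol. Phase II enzymes then join a glucuronic acid, sulfate or glutathione to the product, which makes it more soluble and easier to excrete. Many of these genes are induced by receptors that sense foreign or endogenous chemicals, chiefly the aryl hydrocarbon receptor, PXR and CAR. Members of 1 subfamily (CYP2A, CYP3A, ADH1, UGT2B, SULT1A, GSTA, GSTM) have very similar sequences, so their probe sets may read each other's transcripts. Their values are therefore not independent. In a piece of whole liver, fewer cells of a type and less RNA per cell cannot be told apart.

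A value that stands for RNA integrity on this array type differed between the times, and no direct measure of integrity was used. It is the log2 signal of the 3′ minus the 5′ control probe sets of GAPDH and ACTB, which is higher where RNA is less intact. Its mean over 12 animals was 2.57 ± 0.43 (SD) before treatment, then 1.94 ± 0.41 by week 4, and 1.83 ± 0.16 by week 12. It fell from baseline to week 4 (exact paired permutation test, two-sided p = 0.00195) and to week 12 (exact p = 9.77e-04), while the change from week 4 to week 12 was -0.11 ± 0.11 (SE, exact p = 0.333). Changes over time were therefore also fitted with this value as a covariate, which is called the covariate below. The value itself fell after baseline, so it and time could not be told apart in the changes from baseline. A fit with the covariate may take out change over time as well, and which part it removed was not tested. The mean log2 level of 17 hepatocyte marker genes was 12.94, 12.91 and 12.95 at the respective times (exact p of 0.248 and 0.957 for the changes from baseline). The control array of animal 5 at week 12 was low in these markers, at 12.40. Marker genes were counted as risen or fallen at an adjusted p under 0.05 (limma), and their changes are given without the covariate. Of all genes 35.7% passed from baseline to week 4, 27.4% to week 12 and 27.6% from week 4 to week 12. Of 15 endothelial markers 12 fell and 1, CLEC4M, rose by 0.20 from baseline to week 4 (86.7% called). To week 12, 12 fell (80% called), and the median changes were -0.57 and -0.72. Of 10 stellate cell and fibroblast markers 6 fell to week 4 and 5 to week 12 (60% and 50% called). The mean of the endothelial markers lay between 6.58 and 7.18 before treatment and between 6.07 and 6.81 after it. Of 12 macrophage markers 5 fell to week 4, and 3 fell and 1 rose to week 12 (41.7% and 33.3% called). Of 13 lymphocyte markers 2 rose and 3 fell to week 4, with a lowest change of -1.40, and 3 rose after it. These were 38.5% and 23.1%, and the macrophage and lymphocyte shares were near those of all genes. Of 6 blood and red cell markers 2 rose to week 4, and 3 fell from week 4 to week 12, with a lowest change of -1.59. The mean of the blood markers lay between 6.42 and 7.12 at week 4 and between 6.16 and 6.82 at week 12. The part of these cell types in the changes of the enzyme genes was not tested.

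Over time the enzyme genes changed about as often as other genes, but mostly upward from baseline. From baseline to week 4, as the mean of both arms, 17 of the 60 rose and 4 fell at an adjusted p under 0.05 (limma, Benjamini-Hochberg over all tested genes). These 21 made 35%, beside 35.7% of all genes, of which 2058 rose and 2813 fell. From baseline to week 12, 18 rose and 2 fell, or 33.3% beside 27.4% of all genes. From week 4 to week 12, 8 rose and 10 fell, or 30% beside 27.6% of all genes. The median log2 changes of the 60 were 0.09, 0.06 and 0.01, and those of all genes -0.01, -0.01 and 0.01. The comparisons share arrays, so a low or high time enters more than 1 of them. With the 3′ minus 5′ value as covariate, the calls among the 60 went from 21 to 6 (25.2% of all genes), from 20 to 1 (5.62%) and from 18 to 16 (27.1%). The 6 were 3 higher and 3 lower, and were not all among the 21. They held 2 CYP2 genes, of which only CYP2U1 had been called without the covariate. Quantile normalization between arrays gave 22 higher and 1 lower to week 4, and 4 higher and 11 lower from week 4 to week 12.

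**Figure D1:**
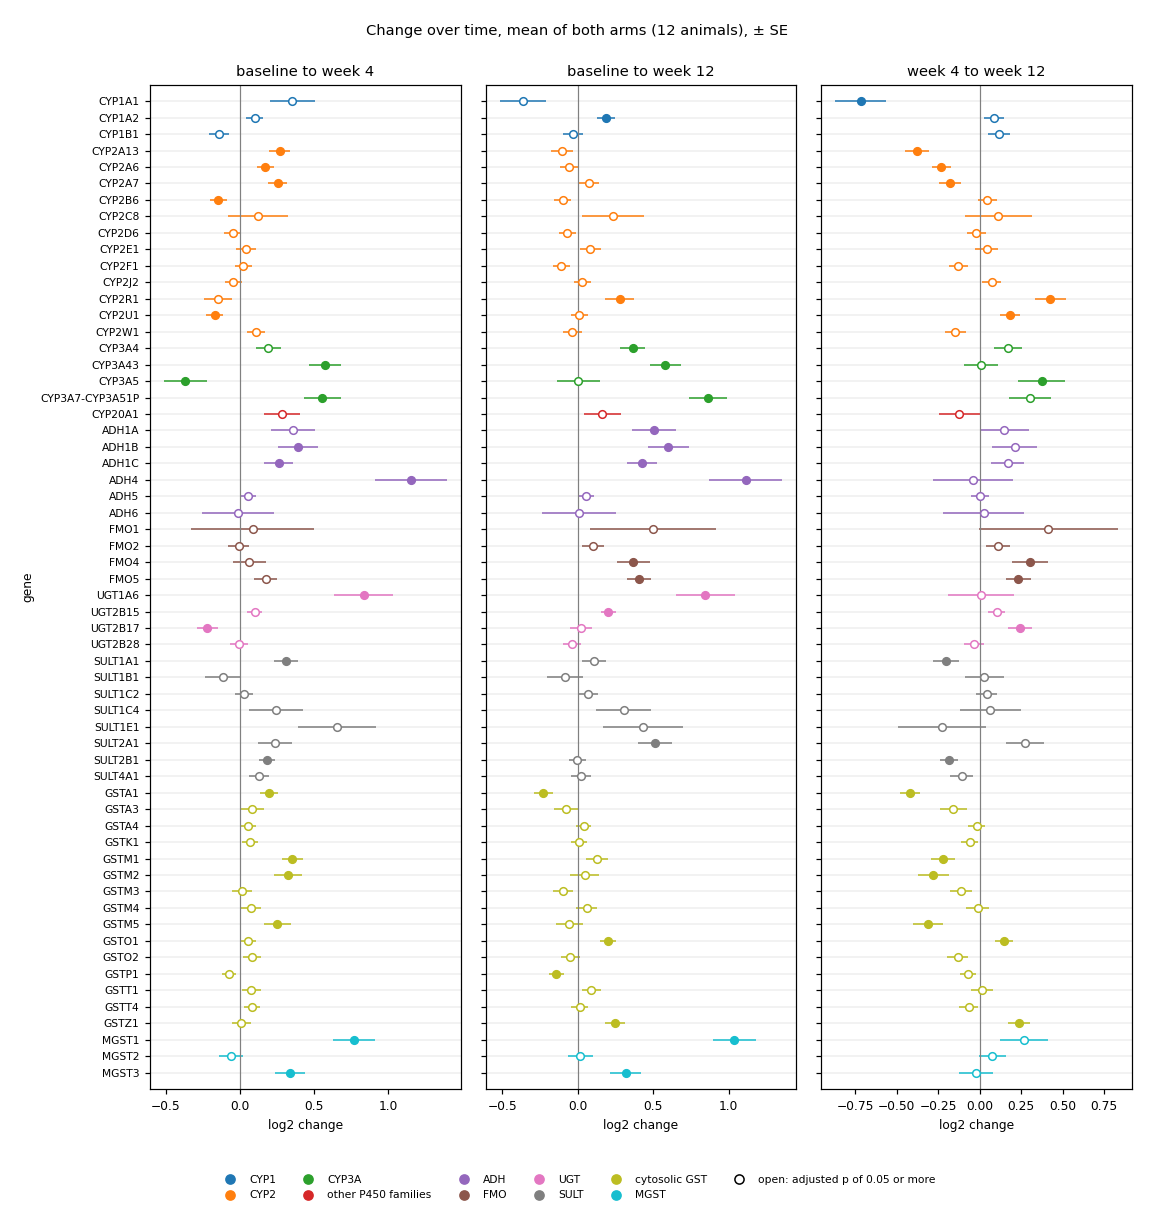
Log2 change (x axis, ± SE) of each of the 60 tested genes (y axis) between the 3 times, as the mean of 12 animals, coloured by enzyme family; filled points have an adjusted p under 0.05. ADH4 lies farthest to the right from baseline, followed by UGT1A6 at week 4 and MGST1 at week 12, and CYP1A1 farthest to the left from week 4 to week 12.

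The alcohol dehydrogenases, which oxidise ethanol, retinol and other alcohols, rose from baseline in the class I and class II genes. Of 6 tested, 3 rose by week 4 and 4 by week 12 (50% and 66.7%, beside 35.7% and 27.4% of all genes). No ADH gene was called from week 4 to week 12, beside 27.6% of all genes. ADH4, the class II enzyme, had log2 levels between 8.44 and 11.79 (median 10.26) before treatment, between 10.67 and 12.14 (median 11.28) at week 4, and between 10.52 and 11.92 (median 11.33) at week 12. The later levels were high in nearly all animals, while the baseline levels spread widely and overlapped them. The change was 1.15 ± 0.24 to week 4 (SE; limma adjusted p = 3.14e-04; higher in 12 of 12 animals) and 1.11 ± 0.24 to week 12 (adjusted p = 5.97e-04; 11 of 12). The lowest baseline levels, 8.44 and 8.62, were those of anti-miR-33 animal 4 and control animal 5, whose 3′ minus 5′ values were the highest, at 3.30 and 3.02. With that value as covariate the changes were 0.39 (adjusted p = 0.271) and 0.21 (adjusted p = 0.731). A second ADH4 probe set above the filter changed by 0.26 and 0.05.

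ADH1B, a class I enzyme and the main ethanol oxidiser of human liver, had log2 levels between 7.25 and 8.98 (median 8.22) before treatment, between 8.03 and 9.16 (median 8.59) at week 4, and between 8.23 and 9.17 (median 8.93) at week 12. The times overlapped, and the later ones lacked the low levels seen at baseline. It rose by 0.39 ± 0.14 to week 4 (limma adjusted p = 0.0223) and by 0.60 ± 0.14 to week 12 (adjusted p = 8.74e-04; 12 of 12 animals). The week 4 call was lost without control animal 3 (0.36, adjusted p = 0.0559) and without anti-miR-33 animal 4 (0.32, adjusted p = 0.0599). With the covariate the changes were -0.02 and 0.11, neither called, and another ADH1B probe set changed by 0.00 and 0.00. ADH1A and ADH1C rose by 0.50 and 0.43 to week 12, and with the covariate were at -0.01 and 0.13. ADH5, the formaldehyde-oxidising class III enzyme, changed by 0.05 and 0.06 (-0.04 and -0.05 with the covariate), and was not called.

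CYP3A enzymes oxidise more drugs in use than any other P450 group, and 3 of the 4 tested genes rose from baseline to week 12. These made 75%, beside 27.4% of all genes. CYP3A43 had log2 levels between 9.85 and 10.82 (median 10.61) before treatment, between 10.49 and 11.37 (median 10.98) at week 4, and between 10.47 and 11.49 (median 10.96) at week 12. Most animals were higher at both later times, with overlap between the ranges. Its change was 0.57 ± 0.10 to week 4 (limma adjusted p = 6.03e-05; 12 of 12 animals) and 0.58 ± 0.10 to week 12 (adjusted p = 6.86e-05). The other CYP3A43 probe sets changed by 0.52 to 0.59 and by 0.46 to 0.64. With the covariate CYP3A43 changed by 0.30 (adjusted p = 0.061) and 0.26 (adjusted p = 0.253).

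CYP3A7-CYP3A51P covers the fetal-type enzyme CYP3A7. It had log2 levels between 11.35 and 12.93 (median 12.58) before treatment, between 12.53 and 13.38 (median 12.95) at week 4, and between 12.81 and 13.71 (median 13.27) at week 12. The later ranges lay above most of the baseline range and overlapped its top. The transcript rose by 0.56 ± 0.13 to week 4 and by 0.86 ± 0.13 to week 12 (limma adjusted p of 7.33e-04 and 3.07e-06; 12 of 12 animals in both). With the covariate the changes were 0.18 and 0.42 (adjusted p of 0.342 and 0.0845).

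CYP3A4, the main drug-oxidising P450 of human liver, had log2 levels between 12.14 and 12.95 (median 12.63) before treatment, between 12.49 and 13.18 (median 12.77) at week 4, and between 12.30 and 13.27 (median 12.95) at week 12. The ranges overlapped at all times. It was 0.19 ± 0.08 higher at week 4 (limma adjusted p = 0.074) and rose by 0.36 ± 0.08 to week 12 (adjusted p = 0.00116; 12 of 12 animals). Its other probe sets did not move as 1: they changed by 0.30, -0.11, 0.41 and -0.24 to week 12. The mean of the CYP3A4 probe sets changed by -0.03 to week 4, and with the covariate the week 4 and week 12 changes were -0.08 and 0.04.

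CYP3A5, whose expression varies widely between people, went down and back. Its log2 levels lay between 6.92 and 7.98 (median 7.48) before treatment, between 5.88 and 7.66 (median 7.18) at week 4, and between 7.03 and 8.33 (median 7.21) at week 12. The week 4 range reached lower than both others, and the lowest value, 5.88, was that of control animal 1. CYP3A5 fell by 0.37 ± 0.14 to week 4 (limma adjusted p = 0.0407) and rose by 0.37 ± 0.14 from there to week 12 (adjusted p = 0.0476). With the covariate the first was -0.16 (adjusted p = 0.558), not called, and the second 0.41 (adjusted p = 0.0273). The mean of the CYP3A5 probe sets changed by -0.21 to week 4 (adjusted p = 0.00634). Without that week 4 array neither was called (-0.26, adjusted p = 0.107, and 0.26, adjusted p = 0.111). The first call was lost in 8 and the second in 9 of 12 fits that left out 1 animal, with ranges over all 12 of -0.43 to -0.30 and 0.28 to 0.44.

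CYP1 genes are the classical targets of the aryl hydrocarbon receptor, and of the 3 tested only CYP1A1 was called from week 4 to week 12. That made 33.3%, beside 27.6% of all genes. CYP1A1, which oxidises polycyclic aromatic compounds, had log2 levels between 5.80 and 6.90 (median 6.10) before treatment, between 5.69 and 7.33 (median 6.46) at week 4, and between 5.14 and 6.64 (median 5.67) at week 12. Levels were high in some animals at week 4 and low in most at week 12, with overlap. It fell by 0.72 ± 0.15 from week 4 to week 12, in 12 of 12 animals (limma adjusted p = 6.85e-04). The change was -0.57 in the control arm and -0.86 in the anti-miR-33 arm, and the difference of -0.29 ± 0.30 did not pass its test (limma adjusted p = 0.999). With the covariate the change over both arms was -0.74 (adjusted p = 6.26e-04), and CYP1A1 kept its call in each of 12 fits without 1 animal. The changes from baseline were 0.35 ± 0.15 to week 4 and -0.36 ± 0.15 to week 12, neither called (adjusted p of 0.0692 and 0.0719). Both were called with the animal as a fixed block (adjusted p of 0.0322 and 0.0316). CYP1A2, the caffeine-oxidising hepatic enzyme, rose by 0.19 from baseline to week 12 (limma adjusted p = 0.0193), and with the covariate its change was 0.16, not called. CYP1B1, mainly expressed outside hepatocytes, was not called in any of these comparisons.

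In the CYP2 group the CYP2A genes rose to week 4 and fell after it, and CYP2R1 rose after it. CYP2A13 had log2 levels between 6.00 and 6.55 (median 6.38) before treatment, between 6.28 and 7.03 (median 6.58) at week 4, and between 5.81 and 6.63 (median 6.26) at week 12. Week 4 was the highest time in most animals, with overlap. From week 4 to week 12 CYP2A13, CYP2A6 and CYP2A7 fell by 0.37 ± 0.07, 0.23 ± 0.06 and 0.18 ± 0.07 (limma adjusted p of 2.54e-04, 0.00334 and 0.0357). CYP2A6, the nicotine-oxidising enzyme, was lower in 12 of 12 animals, and its other probe sets changed by -0.20 to -0.28. With the covariate the changes of CYP2A13, CYP2A6 and CYP2A7 were -0.38, -0.25 and -0.21, all called. The CYP2A7 call did not survive leaving out control animals 1 or 5, or animals 4, 5 or 6 of the anti-miR-33 arm, at -0.16 to -0.17. In the rise to week 4 the values were 0.27, 0.17 and 0.25, all called, and 0.23, 0.05 and 0.09 with the covariate, none called.

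CYP2R1, the vitamin D 25-hydroxylase, had log2 levels between 6.61 and 6.97 (median 6.82) before treatment, between 5.98 and 7.45 (median 6.63) at week 4, and between 6.55 and 7.52 (median 7.11) at week 12. The week 4 spread was set by control animals 4 and 1 at its ends, and the ranges overlapped. It rose by 0.43 ± 0.10 from week 4 to week 12 (limma adjusted p = 0.0011; 0.39 with the covariate, adjusted p = 0.00129). The gain from baseline to week 12, 0.28, was 0.03 with the covariate. CYP2U1, a fatty acid hydroxylase, fell by 0.17 to week 4 and rose by 0.18 after it. With the covariate both were called, at -0.32 (limma adjusted p = 4.45e-04) and 0.16 (adjusted p = 0.0205). Without anti-miR-33 animal 2 its changes were -0.13 and 0.14, neither called, and without control animal 4 the second was 0.16, not called. Quantile normalization gave -0.09 and 0.10, also not called.

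CYP2B6, a CAR target, fell by 0.15 ± 0.06 to week 4 (limma adjusted p = 0.0413), a call lost in 7 of the 12 fits without 1 animal (-0.17 to -0.12 over all 12). With the covariate it was -0.10 (adjusted p = 0.350), not called. CYP2E1, which oxidises ethanol and paracetamol, had log2 levels between 13.31 and 13.62 (median 13.41) before treatment, between 13.18 and 13.85 (median 13.50) at week 4, and between 12.73 and 13.72 (median 13.57) at week 12. Only the week 12 array of control animal 5, at 12.73, stood clearly below the others. That array also had a highest value of any probe set of only 13.80. CYP2E1 changed by 0.04 and 0.08 from baseline and was not called. Without that array the week 12 change was 0.15 (adjusted p = 0.0253), and with the covariate it was -0.07. CYP2C8 and CYP2D6, which metabolise many drugs, changed by 0.12 ± 0.20 and -0.05 ± 0.06 to week 4 and by 0.23 ± 0.20 and -0.07 ± 0.06 to week 12, and neither was called. With the covariate CYP2C8 changed by -0.29 and -0.25, and CYP2D6 by 0.01 and 0.01.

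Flavin monooxygenases oxidise nitrogen and sulfur atoms, and FMO4 and FMO5 of 4 tested rose to week 12 (50%, beside 27.4% of all genes). FMO5 had log2 levels between 10.31 and 11.35 (median 10.69) before treatment, between 10.64 and 11.17 (median 10.98) at week 4, and between 10.96 and 11.39 (median 11.18) at week 12. The week 12 levels were high and tight, and overlapped both other times. FMO5 rose by 0.41 ± 0.08 from baseline to week 12 (limma adjusted p = 1.36e-04; 0.12 with the covariate, adjusted p = 0.468) and by 0.23 ± 0.08 from week 4 (adjusted p = 0.0219). Its second probe set changed by 0.07 and -0.08. The call from week 4 was lost without anti-miR-33 animal 2 (0.21, adjusted p = 0.0545) and after quantile normalization (0.15). FMO4 rose by 0.37 from baseline and by 0.30 from week 4, and the latter call was lost in 7 of 12 fits without 1 animal, at 0.25 to 0.30 in those fits. With the covariate both FMO4 calls were lost, at 0.21 (adjusted p = 0.480) and 0.28 (adjusted p = 0.0513), while the FMO5 rise from week 4 was called at 0.19. FMO1 had the widest error of the group, 0.50 ± 0.42 to week 12 (-0.11 with the covariate), and was not called.

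**Figure D2:**
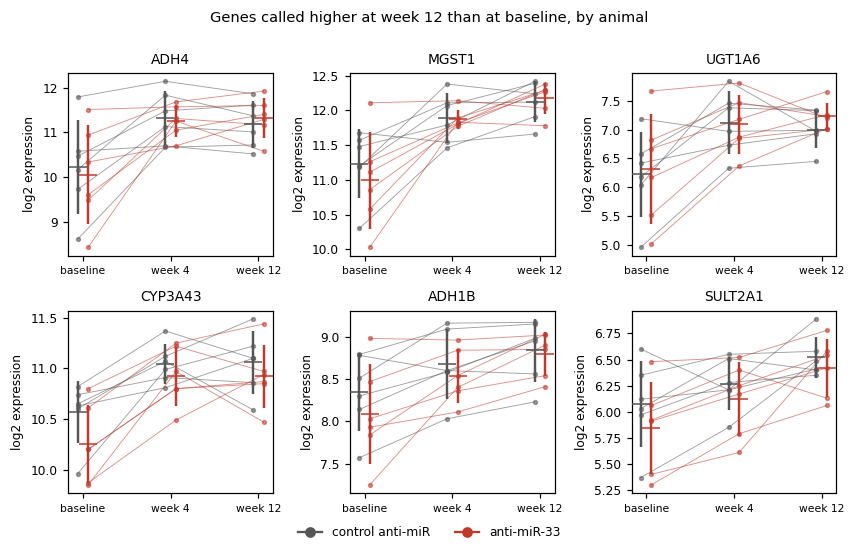
Log2 expression (y axis) at baseline, week 4 and week 12 (x axis) of 6 genes called higher at week 12 than at baseline; each thin line is 1 animal, and bars are the arm's mean ± SD (n = 6). Baseline values spread from 8.44 to 11.79 for ADH4 and narrow at the later times, in both arms.

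Among the glucuronosyltransferases 2 of 4 tested genes rose to week 12 (50%, beside 27.4% of all genes). UGT1A6, which conjugates phenols, had log2 levels between 4.96 and 7.67 (median 6.30) before treatment, between 6.33 and 7.84 (median 7.08) at week 4, and between 6.45 and 7.66 (median 7.11) at week 12. Baseline held both low animals and the level of the later times. UGT1A6 rose by 0.84 ± 0.20 to week 4 and 0.85 ± 0.20 to week 12 (limma adjusted p of 0.00122 and 0.00136), and with the covariate the changes were 0.15 and 0.04, neither called. UGT2B15, which conjugates androgens and phenols, rose by 0.20 to week 12 (0.08 with the covariate). UGT2B17, a testosterone-conjugating enzyme, had log2 levels between 6.03 and 6.61 (median 6.27) before treatment, between 5.76 and 6.53 (median 6.05) at week 4, and between 5.89 and 6.72 (median 6.34) at week 12. Week 4 was the low time, with overlap. It fell by 0.22 ± 0.07 to week 4 (adjusted p = 0.0167) and rose by 0.24 ± 0.07 after it (adjusted p = 0.0118). Both calls remained with the covariate, at -0.29 and 0.23.

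Of 8 tested sulfotransferases, SULT1A1 and SULT2B1 rose to week 4 and fell after it, and SULT2A1 rose to week 12. The shares called were 25% to week 4, 12.5% to week 12 and 25% after week 4, beside 35.7%, 27.4% and 27.6% of all genes. SULT2A1, which sulfates bile acids and the androgen precursor DHEA, had log2 levels between 5.30 and 6.60 (median 6.00) before treatment, between 5.61 and 6.55 (median 6.23) at week 4, and between 6.06 and 6.89 (median 6.46) at week 12. The lowest levels were at baseline and the highest at week 12, and the times overlapped. The gain to week 12 was 0.51 ± 0.11 (limma adjusted p = 7.54e-04; 11 of 12 animals), against 0.08 with the covariate and 0.08 in a second probe set. SULT1A1, which sulfates phenols such as paracetamol, rose by 0.31 ± 0.08 to week 4 in 12 of 12 animals (adjusted p = 0.00209; 0.17 with the covariate, not called). Its fall of 0.20 ± 0.08 after week 4 was called only at the margin (adjusted p = 0.0493) and lost its call in 10 of 12 fits without 1 animal (-0.26 to -0.17). SULT2B1, a cholesterol sulfotransferase, rose by 0.18 ± 0.06 and fell by 0.19 ± 0.06 (adjusted p of 0.0103 and 0.012), and remained called with the covariate at 0.28 and -0.17. SULT1E1, the estrogen sulfotransferase, had the largest uncalled difference, 0.66 ± 0.27 to week 4 (adjusted p = 0.0506). It was called with the animal as a fixed block (adjusted p = 3.84e-04), and with the covariate its change was 0.07.

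Of 15 tested cytosolic glutathione transferases 4 rose to week 4, and 4 fell and 2 rose after it. These made 26.7% and 40%, beside 35.7% and 27.6% of all genes. GSTA1, an abundant hepatic enzyme of the alpha class, had log2 levels between 12.76 and 13.47 (median 13.13) before treatment, between 13.13 and 13.49 (median 13.25) at week 4, and between 12.52 and 13.08 (median 12.88) at week 12. All 12 week 4 arrays lay at or above 13.13 and all 12 week 12 arrays at or below 13.08, a separation seen in 1 of the 60 and in 0.323% of all genes. From baseline 0 of the 60 separated from week 4 or week 12, beside 0.777% and 0.601% of all genes. GSTA1 fell by 0.42 ± 0.06 from week 4 to week 12 in 12 of 12 animals (limma adjusted p = 7.54e-06), with changes of -0.46 in the control arm and -0.39 in the anti-miR-33 arm. It was the call of smallest p among the 60 in that interval, and with the covariate it was -0.44. It rose by 0.19 to week 4 (0.10 with the covariate, not called). It also fell by 0.23 from baseline to week 12, -0.34 with the covariate (adjusted p = 0.00922), the single call left in that comparison. A second GSTA1 probe set changed by 0.12 from week 4 to week 12 and by -0.07 from baseline, and the mean of both by -0.15 in each comparison.

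The mu class genes GSTM1, GSTM2 and GSTM5 rose to week 4 and fell after it. GSTM2 had log2 levels between 8.50 and 9.26 (median 8.89) before treatment, between 8.81 and 9.58 (median 9.29) at week 4, and between 8.50 and 9.38 (median 9.01) at week 12. Week 4 was the high time in both arms, with overlap. The rises were 0.35 ± 0.07, 0.32 ± 0.09 and 0.25 ± 0.09 for GSTM1, GSTM2 and GSTM5 (limma adjusted p of 2.53e-04, 0.00721 and 0.0267). With the covariate they were 0.39, 0.32 and 0.41, of which GSTM2 was not called (adjusted p = 0.0561). The falls after week 4 were 0.22 ± 0.07, 0.28 ± 0.09 and 0.31 ± 0.09 (adjusted p of 0.0199, 0.0255 and 0.00992), and the latter 2 ran in 12 of 12 animals. With the covariate they were -0.21, -0.28 and -0.28, all called. The GSTM2 fall lost its call when any of control animals 1, 3 and 5, or animal 2 of the anti-miR-33 arm, was left out (-0.24 to -0.27). GSTM3 and GSTM4 were not called in any of these comparisons.

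Of the other cytosolic classes, GSTZ1, which acts in tyrosine breakdown, rose by 0.24 from baseline to week 12 in 12 of 12 animals and by 0.24 from week 4. With the covariate these were 0.13, not called, and 0.22, called. GSTO1 rose by 0.20 to week 12 and by 0.15 from week 4, the latter lost in 7 of 12 fits without 1 animal (0.13 to 0.15 in those fits). Both GSTO1 calls were lost with the covariate, at 0.05 (limma adjusted p = 0.773) and 0.12 (adjusted p = 0.0577), and quantile normalization gave 0.08 (adjusted p = 0.184) from week 4. GSTP1, the pi class gene and mainly a bile duct gene in human liver, fell by 0.14 ± 0.05 to week 12 (limma adjusted p = 0.0254). That call was lost when control animal 2, or any of animals 4, 5 and 6 of the anti-miR-33 arm, was left out (-0.12 to -0.14), after quantile normalization (-0.12) and with the covariate (-0.03).

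MGST1, a membrane enzyme that also detoxifies lipid peroxides, had the call of smallest p from baseline to week 12 among the 60. Its log2 levels lay between 10.03 and 12.11 (median 11.19) before treatment, between 11.46 and 12.38 (median 11.83) at week 4, and between 11.66 and 12.42 (median 12.26) at week 12. Only 1 baseline array, that of anti-miR-33 animal 1, reached into the upper part of the later ranges. MGST1 rose by 0.77 ± 0.14 to week 4 and by 1.04 ± 0.14 to week 12 (limma adjusted p of 7.06e-05 and 1.20e-06), and its other probe sets above the filter by 0.59 and 0.72, and by 0.80 and 0.91. With the covariate the changes were 0.20 (adjusted p = 0.217) and 0.36 (adjusted p = 0.0856). The baseline array of anti-miR-33 animal 1, highest in MGST1, ADH1A, ADH1B and UGT1A6, also had the lowest baseline 3′ minus 5′ value, 1.79.

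MGST3 rose by 0.34 ± 0.10 to week 4 and by 0.32 ± 0.10 to week 12 (limma adjusted p of 0.00947 and 0.0186). With the covariate these were -0.04 and -0.13, and its other probe sets changed by 0.03 to 0.09. Its log2 levels ran from 10.05 to 11.43 at baseline, 10.55 to 11.36 at week 4 and 10.54 to 11.33 at week 12, with full overlap. MGST2 was not called.

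**Figure D3:**
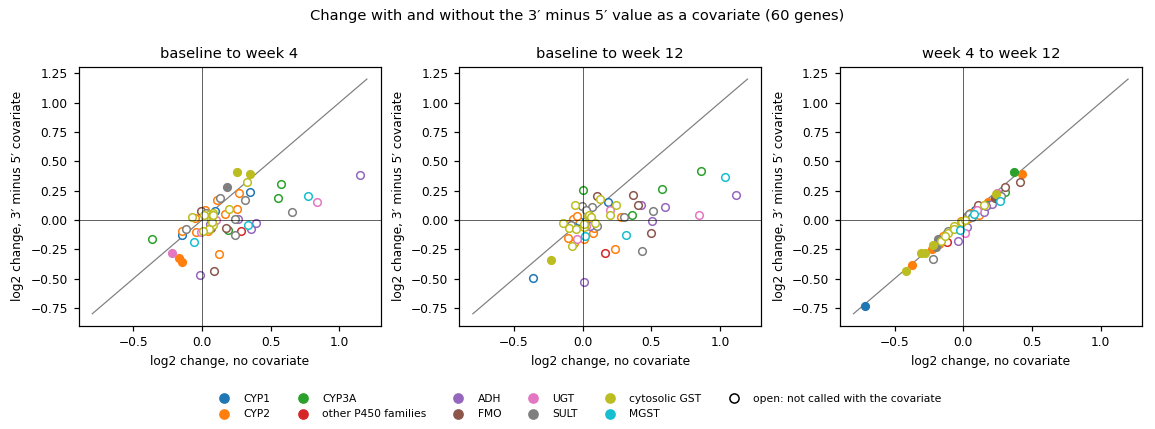
Log2 change of the 60 genes without (x axis) and with (y axis) the 3′ minus 5′ value as covariate, for 3 comparisons; the diagonal marks equal values, colours are families, and filled points were called with the covariate. From baseline most of the large changes lie far below the diagonal, with 6 and 1 genes called, whereas from week 4 to week 12 the points lie close to it, with 16 called.

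**Figure D4:**
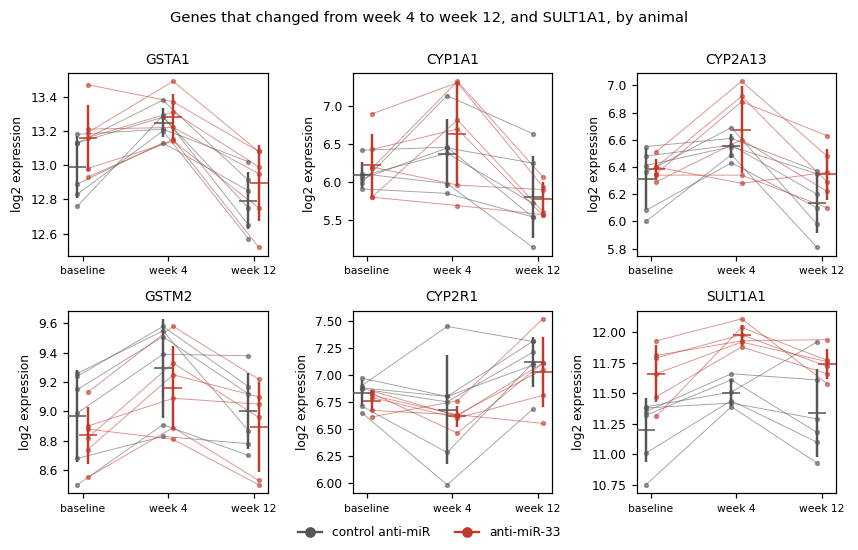
Log2 expression (y axis) at baseline, week 4 and week 12 (x axis) of 5 genes that changed from week 4 to week 12 and of SULT1A1; each thin line is 1 animal, and bars are the arm's mean ± SD (n = 6). GSTA1 and CYP1A1 are lower at week 12 than at week 4 in all 12 animals, and SULT1A1 is higher in the anti-miR-33 arm at all times, including baseline.

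No enzyme gene passed the test between the anti-miR-33 and control arms. At baseline, week 4 and week 12, 0 of the 60 genes were called, beside 0% of all genes (limma). At an unadjusted p under 0.05 there were 1, 2 and 2 of the 60, and 531, 662 and 414 of 13634 genes. The differences between arms in the change over time gave 0 calls among the 60 and 0% among all genes in all 3 intervals, with 0, 0 and 1 of the 60 and 478, 299 and 487 genes at an unadjusted p under 0.05. The median arm difference of the 60 was -0.03, -0.01 and 0.02 at the respective times, and the extremes were -0.61 and 0.47. The standard errors of these differences ran from 0.08 to 0.64, and with 6 animals an arm even SULT1A1, at 0.47 ± 0.12, was not called.

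SULT1A1 had the smallest p of the 60 at every time and was higher in the anti-miR-33 arm before treatment had begun. Its log2 levels at baseline were 10.75, 11.34 and 11.39 (lowest, median, highest) in control animals and 11.31, 11.73 and 11.93 in animals later given anti-miR-33. At week 4 they were 11.39, 11.48 and 11.66 against 11.88, 11.96 and 12.11, and at week 12 10.93, 11.24 and 11.92 against 11.58, 11.74 and 11.94. The arms did not overlap at week 4, which held for 1 of the 60 and for 0.0807% of all genes. They overlapped at baseline and week 12, when 0 of the 60 had separate arms, beside 0.161% and 0.0733% of all genes. The difference was 0.46 ± 0.12 at baseline (limma adjusted p = 0.999), 0.47 ± 0.12 at week 4 (adjusted p = 0.442) and 0.40 ± 0.12 at week 12 (adjusted p = 0.998). The arms differed in the change from baseline by 0.01 ± 0.16 to week 4 and -0.06 ± 0.16 to week 12. A second probe set gave 0.44, 0.49 and 0.36, and another 0.10, 0.03 and 0.16.

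Other arm differences were smaller relative to their errors. At baseline the CYP3A genes were lower in the anti-miR-33 arm in 4 of 4 cases (median -0.25) and the ADH genes in 6 of 6 (median -0.20), with none called. The CYP2 genes were higher in that arm in 9 of 12 cases, as were 38.3% of the 60 and 47.6% of all genes. CYP3A43 and CYP3A7-CYP3A51P were at -0.31 ± 0.16 and -0.27 ± 0.19. With the covariate they were at -0.20 and -0.12, and the latter was -0.09 without anti-miR-33 animal 4 and -0.44 without control animal 5. The 3′ minus 5′ value at baseline was 2.70 ± 0.49 in that arm and 2.44 ± 0.34 in controls (SD, n = 6, exact p = 0.327). By week 12 the medians of the CYP3A and ADH genes were -0.04 and -0.06. The mean of the hepatocyte markers at week 12 differed by 0.13 between the anti-miR-33 and control arms (exact p = 0.110). The array of control animal 5, at 12.40, lay well below the other controls. The arm medians were 13.01 for anti-miR-33 and 12.98 for control. The part of these markers in the week 12 values was not tested. FMO4 was at -0.23 at baseline (-0.13 without control animal 3), and CYP2A6 and GSTA1 were at 0.17 each. The GSTA1 value was 0.11 without anti-miR-33 animal 1 and 0.04 as the mean of its probe sets.

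At week 4 SULT1C4, a sulfotransferase, was at -0.61 ± 0.28 in the anti-miR-33 arm (limma adjusted p = 0.998), ADH1C at -0.27 and GSTM4 at -0.20, while CYP2W1 and CYP2U1 were at 0.18 and 0.15. Without control animal 1, whose week 4 array carries the other diet label, SULT1C4 was at -0.37. At week 12 CYP2A6 was at 0.21 ± 0.09 (limma adjusted p = 0.998), CYP2A13 at 0.21, CYP3A5 at -0.43 ± 0.22, SULT1B1 at -0.26 and SULT2B1 at -0.16. Without control animal 5 CYP2A6 was at 0.13, and without control animal 2 SULT1B1 was at -0.11. Other CYP3A5 probe sets gave -0.24 and 0.01. CYP3A4 was at -0.13 ± 0.13 at week 4 (-0.06 without control animal 1) and 0.06 ± 0.13 at week 12, and the latter became -0.04 without the week 12 array of control animal 5.

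In the test of unequal change, CYP2E1 gave the single unadjusted p under 0.05. From week 4 to week 12 it changed by -0.11 in the control arm and 0.20 in the anti-miR-33 arm, a difference of 0.31 ± 0.14 (limma adjusted p = 0.999). Without control animal 5 that difference was 0.19, and after quantile normalization 0.18. CYP2W1 and GSTK1 differed in the change to week 4 by 0.23 ± 0.13 and 0.17 ± 0.10, and SULT1C4 by -0.48 ± 0.36 (-0.25 without control animal 1). In the change to week 12 GSTK1 and CYP3A7-CYP3A51P differed by 0.20 ± 0.10 and 0.33 ± 0.25, and SULT1B1 by -0.24 ± 0.24. The CYP3A7-CYP3A51P value was 0.16 with the covariate and 0.21 after quantile normalization. SULT1B1 was at -0.13 without control animal 2 and -0.36 without control animal 5.

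**Figure D5:**
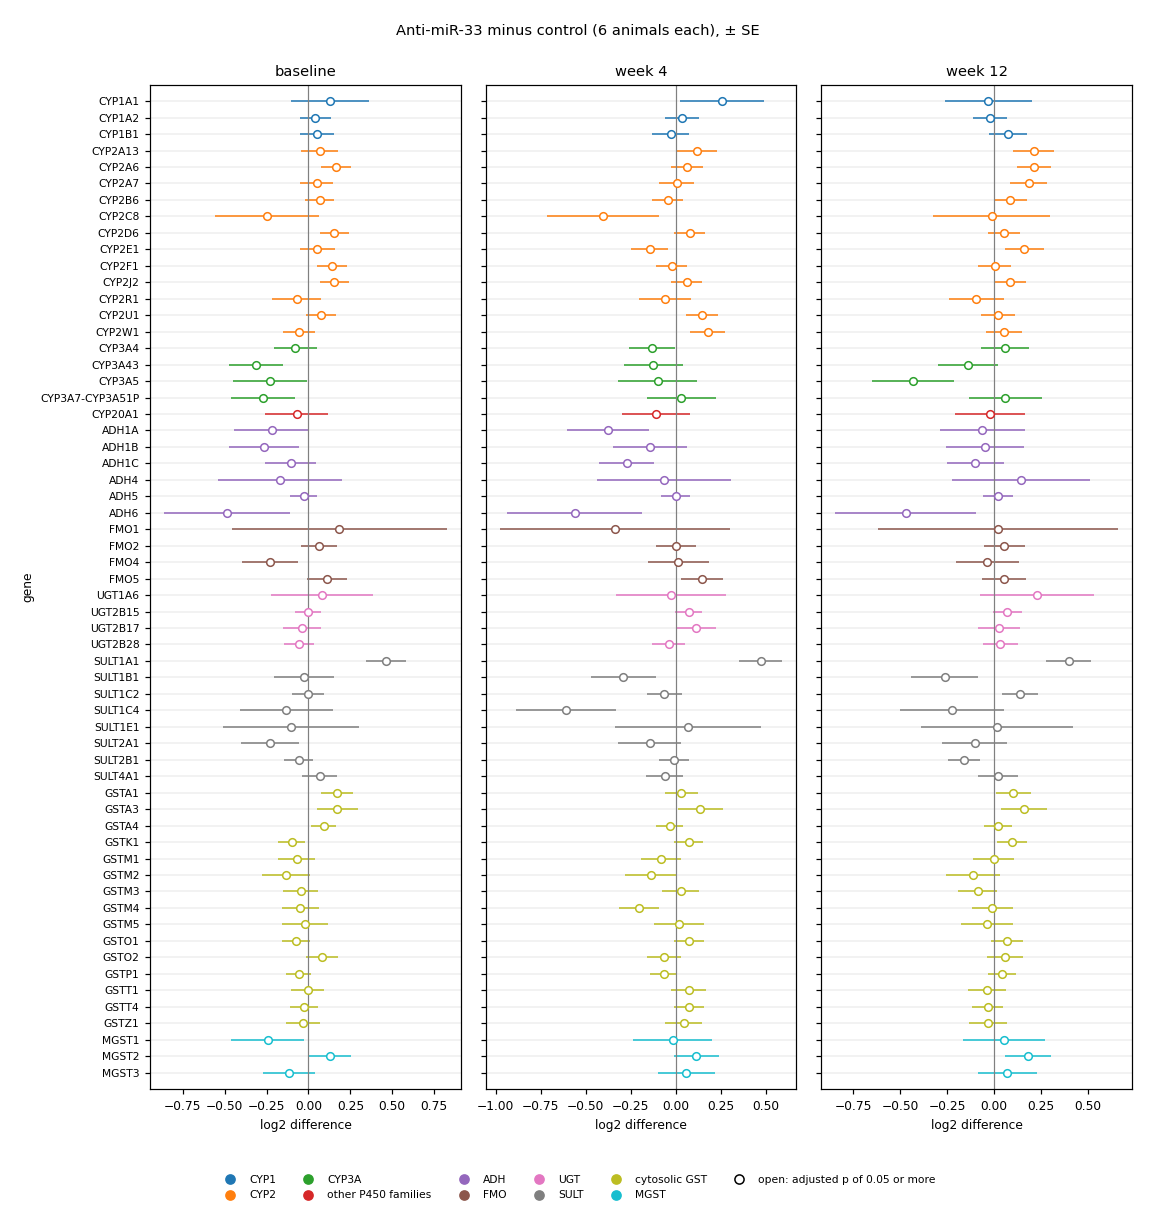
Log2 difference of the anti-miR-33 arm minus the control arm (x axis, ± SE, 6 animals each) for the 60 genes (y axis) at the 3 times, coloured by family; open points have an adjusted p of 0.05 or more. All points are open, and SULT1A1 lies between 0.40 and 0.47 at every time, baseline included.

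Genes around these enzymes were described from lists of related genes. Their counts of calls stand beside 35.7%, 27.4% and 27.6% of all genes called from baseline to week 4, from baseline to week 12 and from week 4 to week 12. Of 14 regulators of drug metabolism genes 1 rose and 4 fell to week 4, 3 rose and 3 fell to week 12, and 3 rose from week 4 to week 12 (35.7%, 42.9% and 21.4% called). NR0B2 (SHP), a repressor induced by bile acids, rose by 1.04 ± 0.15 from baseline to week 12 and by 0.83 ± 0.15 from week 4 (limma adjusted p of 2.09e-06 and 1.04e-04), and with the covariate by 0.88 and 0.80, both called. NR3C1, the glucocorticoid receptor, fell by 0.63 ± 0.06 to week 4 (adjusted p = 1.15e-09; -0.55 with the covariate). The mean of its probe sets fell by 0.20. NR1I3, the receptor CAR, changed by -0.01 to both times and was not called, and AHR and NR1I2 (PXR) were not among the tested genes.

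Of 16 genes that supply the cosubstrates of conjugation, 5 rose and 2 fell to week 4, and 7 rose and 1 fell to week 12 (43.8% and 50% called). CTH, which makes cysteine for glutathione, rose by 0.81 ± 0.17 to week 4 (limma adjusted p = 3.50e-04), and with the covariate changed by 0.10 (adjusted p = 0.628). Of 13 electron donors and heme enzymes of the P450 system 3 rose and 3 fell to week 4, and 4 rose and 2 fell to week 12 (46.2% called in each). BLVRA, biliverdin reductase, fell by 0.39 to week 12, and with the covariate changed by -0.20, not called; the mean of its probe sets fell by 0.23.

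Of 40 other enzymes of oxidation, hydrolysis and conjugation, 10 rose and 3 fell to week 4, 12 rose and 2 fell to week 12, and 9 rose and 2 fell from week 4 to week 12. These were 32.5%, 35% and 27.5% of the list, near the shares of all genes at week 4 and after it. INMT, a methyltransferase, fell by 1.32 ± 0.13 and 1.31 ± 0.13 from baseline, and with the covariate by 1.07 and 1.01, both called (limma). AOX1, aldehyde oxidase, rose by 0.80 ± 0.13 to week 4 (0.25 with the covariate, adjusted p = 0.049, and 0.49 as the mean of its probe sets). ALDH1A1, which oxidises retinal, rose by 0.65 and 0.95, and with the covariate changed by 0.11 and 0.31, neither called. AKR1B10, an aldo-keto reductase, rose by 0.93 to week 12 (0.29 with the covariate, not called) and by 0.66 from week 4, a call lost with the covariate (0.57, adjusted p = 0.0608) and in 6 of 12 fits without 1 animal (0.57 to 0.66 in those fits). TPMT, which methylates thiopurines, fell by 0.36 ± 0.06 from week 4 to week 12, and by 0.19 as the mean of its probe sets. With the covariate its change was -0.36, called.

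Of 15 drug transporters 5 rose and 4 fell to week 4, 5 rose and 1 fell to week 12, and 3 rose and 1 fell from week 4 to week 12 (60%, 40% and 26.7% called). ABCB1, the efflux pump P-glycoprotein, rose by 0.48 ± 0.08 from week 4 to week 12 (limma adjusted p = 9.30e-05; 0.43 with the covariate, called). ABCC3, a basolateral efflux pump, fell by 0.37, a call lost in 8 of 12 fits without 1 animal (-0.40 to -0.31 in those fits), and by 0.18 as the mean of its probe sets. With the covariate ABCC3 changed by -0.45, called. Of 10 pericentral genes, which mark the zone where many P450 enzymes are made, 3 rose and 1 fell to week 4, and 0 rose and 3 fell after it (40% and 30% called). SLC1A2, a pericentral glutamate transporter, fell by 0.81 and 0.67 from baseline, against -0.01 and -0.02 in the mean of its probe sets. With the covariate neither SLC1A2 call remained, at -0.52 (limma adjusted p = 0.0562) and -0.33 (adjusted p = 0.421). Of 11 periportal genes 3 rose and 2 fell to week 4, and 3 rose and 1 fell after it (45.5% and 36.4% called), with AGXT down by 0.50 ± 0.07 (-0.49 with the covariate, called). Of 14 acute phase genes 2 rose and none fell to week 4, and 5 rose and 1 fell to week 12 (14.3% and 42.9% called).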

How the data were processed

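The authors deposited 1 table of log2 values for 54675 probe sets on 36 arrays, made with RMA per the submitters' processing notes, whose version was not given in the sources used here. Array medians lay between 4.42 and 4.51. RMA brings arrays toward a like distribution, so a shift shared by most transcripts would not show. Differences between arrays remained at the top, where the highest value of an array ran from 13.80 to 15.07. Counts of calls in each direction changed with a further quantile normalization, as given above. No gene's level was compared with that of another gene. Symbols came from the platform annotation, and 1801 probe sets with several genes were left out. For each gene the probe set with the highest mean was kept, and probe sets with a mean under 4.459, the median, were not tested. One limma model (version 3.58.1, R 4.3.3) took in all arrays; it had a mean for each of 6 groups, and animal entered as a random block (correlation 0.151). P-values are two-sided and were adjusted by Benjamini-Hochberg over the 13634 genes of each of 9 comparisons, with a threshold of 0.05. A fit was tested on simulated data. Errors of differences are standard errors. The number of arrays limits the precision.

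Arrays were paired through the identifiers of the animals. The median correlation of deviations from group means was 0.26 over 36 pairs of arrays of 1 animal, and -0.06 over 180 pairs of different animals. The labels name the animals, which are the replicates.

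Named genes were the called members with the 10 largest changes in each direction, or up to 3 of smallest p where fewer were called, and members fixed by name. From each pathway list the called genes were counted, and the 3 largest called changes in each direction over all lists were named. Members, lists and tests were chosen with earlier results of these data known. Alternatives changed the filter, the probe set of a gene, the scale (quantile normalization), the block, the RNA covariate, or left out an animal or an array. All 36 columns were used. Sequences were not used here.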

Additional observations from a re-analysis of the deposited data

Results flagged for a closer look

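In 12 of 120 groups of 6 arrays, over 20 genes shown, 1 animal lay far from the other 5 by Dixon's criterion, which chance meets in about 1 in 20 groups. At baseline, control animal 5 was low in MGST1 (10.3, next 11.18), CYP3A43 (9.96, next 10.60) and CYP3A4 (12.14, next 12.57). That array had the highest 3′ minus 5′ value of its group, 3.02. Anti-miR-33 animal 1 was high in MGST3 at baseline (11.43, next 10.55) and in MGST1 at week 4 (12.14, next 11.89), and had the lowest 3′ minus 5′ value of its group at both times, 1.79 and 1.36. At baseline anti-miR-33 animal 5 was high in UGT2B17 (6.43, next 6.27).

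At week 4, anti-miR-33 animal 3 was low in ADH1A (9.02, next 9.70), anti-miR-33 animal 2 was low in FMO5 (10.67, next 10.99) and control animal 1 was high in CYP2E1 (13.85, next 13.55). At week 12, control animal 5 was low in CYP2E1 (12.73, next 13.49), control animal 4 was low in CYP2R1 (6.68, next 7.09) and anti-miR-33 animal 2 was high in CYP3A5 (7.53, next 7.23). The week 12 array of control animal 5 had a highest value of any probe set of 13.80.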

How the results depend on the processing

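With the 3′ minus 5′ covariate the counts of enzyme genes called over time went from 21, 20 and 18 to 6, 1 and 16. With it the changes of ADH1B, MGST3, CYP2E1 and CYP3A4 to week 4 became -0.024, -0.041, -0.091 and -0.084, and those of ADH1A and CYP2E1 to week 12 became -0.0074 and -0.073. The mean of all probe sets turned CYP3A4 to -0.027 (change to week 4) and to 0.026 (arms at week 4). The CYP3A4 arm difference at week 12 ran from -0.062 to 0.13 over fits without 1 animal, and was -0.041 without the week 12 array of control animal 5. The animal as a fixed replicate block gave 27, 23 and 22 calls, and no replicate block gave 15, 19 and 12. Quantile normalization gave 23 (22 higher, 1 lower), 19 and 15 (4 higher, 11 lower). Without 1 animal the counts ran over 17 to 23, 16 to 20 and 12 to 18. Of 44 named calls of enzyme genes over time, 31 were kept in each of those 12 fits. Counts between arms were 0 among the enzyme genes in every setting run. Precision is limited by 6 animals an arm.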
